A study of Mus musculus with 11 samples.

Results

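The genes described here are Cdh5, Angpt2 and 8 other genes known from endothelial cells, the cells that line blood vessels: Pecam1, Cldn5, Esam, Kdr, Flt1, Tek, Tie1 and Angpt1. They are 10 of the 48709 genes in the count files and were read out by their Ensembl identifiers. The list was chosen on results of these same samples, namely the mimic against control difference of Cdh5 and Angpt2, so the group differences of its members are given as a description and support nothing. RNA was sequenced from primary hippocampal neurons of CD1 mice, taken from embryos at E17 (embryonic day 17) and grown in a dish. At DIV10 (day 10 in vitro) the cultures received lipid nanoparticles, loaded in 6 samples with a negative control RNA and in 5 samples with the mimic of miR-181a-5p, and RNA was taken 48 h later at DIV12. Per the study's methods both groups also received ApoE4, and the hippocampi of several embryos were pooled before plating. The methods describe no sorting of the cells.

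Endothelial cells hold together through adherens junctions built on the cadherin of Cdh5 (VE-cadherin) and tight junctions that contain Cldn5. They respond to VEGF through the receptors of Kdr and Flt1, and to the angiopoietins through the receptor of Tek (Tie2), with Tie1 as its partner. In the brain, this machinery maintains the tight vessel wall known as the blood-brain barrier, with Angpt1 mostly activating Tie2 and Angpt2 often opposing it. Hippocampal cultures contain no perfused vessels, and some of these genes are also used by other cells.

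The 2 oligonucleotides that define the groups are shown from 5′ to 3′, with the seed (bases 2 to 8, the stretch through which a microRNA mostly pairs with messenger RNAs) in capitals.
miR-181a-5p mimic: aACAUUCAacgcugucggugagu
negative control: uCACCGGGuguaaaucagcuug
The mimic's sequence is that of the RefSeq mature microRNA on GRCm38. A messenger RNA that pairs with its whole seed holds the 7 bases TGAATGT. The core of that site, GAATGT, pairs with bases 2 to 7.

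For each of the 10 genes the longest 3′ UTR in the annotation was searched for these letters on the transcript's strand (GENCODE M21, GRCm38). None of the 10 genes held TGAATGT, which occurred in 18.47% of the 14481 tested genes with an annotated 3′ UTR. The shorter GAATGT, which every TGAATGT also contains, was found in 5 of the 10 genes and in 36.65% of the tested genes. Of the pair of genes whose levels chose the list, Angpt2 held 1 match and Cdh5 held none. The following windows show the match in capitals with 10 bases to either side, for the ligands and for the VEGF receptors.
Angpt2, chr8:18691773-18691798, minus strand: tcacagggaaGAATGTtccgtgggag
Angpt1, chr15:42426218-42426243, minus strand: tgatccacaaGAATGTttagagcctg
Kdr, chr5:75934215-75934240, minus strand: catgacccaaGAATGTgttgactcta
Flt1, chr5:147635410-147635435, minus strand: cacctcactaGAATGTatacacgtca
Flt1 held 2 matches in a UTR of 3971 bases, and the one shown is the only match among the 10 genes that is followed by an A, a base often found beside microRNA sites. Flt1 is also the only one of the 10 genes in the study's list of predicted miR-181a-5p targets, and its 3′ UTR held 1 match to the seed of the negative control (CCCGGTG). Tek held the remaining match. These matches are letters in an annotated sequence and no measurement of binding.

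The libraries held 17287168 to 48091231 counts, and control replicate 1 was the deepest, with the next at 28934923. A count of 0 allows up to 3 counts, or 0.0631 to 0.175 CPM (the count of a gene scaled to a common library size with TMM factors), which covers counting error only. Testing with edgeR was limited to genes that reached 5 counts in 50% or more of the libraries, and a gene was called when its adjusted p was under 0.05. The labels do not say whether the samples came from separate cultures, so the p-values measure the spread between these samples, which may be technical. Group values below are means ± SD, with n = 6 for control and n = 5 for mimic. Of 17365 genes tested, 495 were called, 188 higher and 307 lower in the mimic samples. With upper-quartile scaling the same test called 234 higher and 226 lower. Of the 10 genes, 7 passed the count filter and 3 (Cldn5, Tek and Tie1) did not. A list of 10 neuronal genes, all of them tested, had a summed level of 9078 to 9260 CPM in control and 8832 to 8980 CPM under mimic. A list of 10 astrocyte genes summed to 4902 to 5342 CPM in control and 4498 to 4814 CPM under mimic. These sums do not give the share of neurons among the cells. The paper describes its primary hippocampal cultures as holding both neurons and glia.

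In the control samples the 10 genes spanned a wide range of levels per exon length, and most of the defining endothelial markers sat at its bottom. Levels between genes are compared here only as CPM per kilobase of exon. Angpt1 was highest at 7.01 ± 0.531 CPM per kilobase (SD, n = 6), above 64.9% of the tested genes. Kdr followed at 3.85 ± 0.332, above 52.1% of them. These were the 2 genes at 1 CPM per kilobase or more. Angpt2 at 0.514 ± 0.112 and Cdh5 at 0.421 ± 0.102 came next and lay above 21.8% and 19.2% of the tested genes. Esam stood at 0.175 ± 0.0378, Pecam1 at 0.0664 ± 0.0102, Flt1 at 0.0379 ± 0.0155 and Tek at 0.0275 ± 0.0201. Tie1 at 0.00421 ± 0.00467 and Cldn5 at 0.00247 ± 0.00606 were the lowest. The ranges over the 6 control samples overlapped between Angpt2 and Cdh5, between Cdh5 and Esam, and between each neighbouring pair from Flt1 down to Cldn5, so those neighbours have no order beyond their spread. The ranges of the other neighbours did not overlap.

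**Figure D1:**
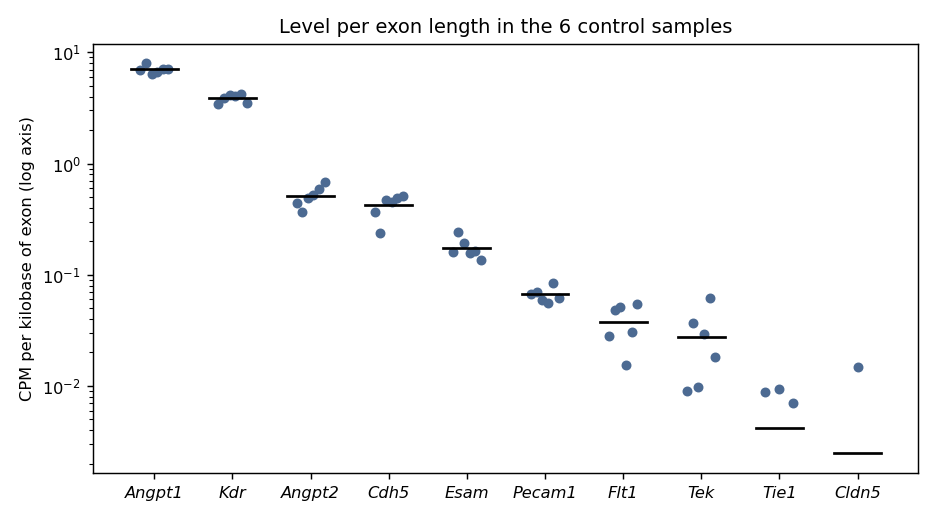
Level of each of the 10 genes in the 6 control samples, as CPM per kilobase of exon on a log axis; points are samples, horizontal lines are means, and samples at 0 cannot be drawn. Angpt1 and Kdr lie above 1, Angpt2 and Cdh5 near 0.5, and Tie1 and Cldn5 show 3 and 1 points because the other control samples had 0 counts.

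Several defining endothelial markers were thus near 0, and the 10 genes are called endothelial here only for what they are known for. Cldn5, the claudin of brain endothelium, had 1 count over all 11 libraries. A list of 34 further endothelial genes held 19 that passed the filter, and its summed level was 88.8 to 97.7 CPM in control and 90.8 to 101 CPM under mimic. Per exon length Itm2a and Plvap, 2 membrane proteins, were highest in that list, at 6.85 ± 0.975 and 6.50 ± 0.501 CPM per kilobase in control samples. The list spanned low and higher genes, named here after their values were seen. The endothelial transcription factors Erg and Sox17 had 4 counts and 1 count over all control libraries and 4 and 0 counts over all mimic libraries. The adhesion receptor Icam2 had 3 and 1. The secreted factor Egfl7 had 1758 counts over the control libraries, the surface proteins Cd93 and Cd34 had 308 and 252, and the nitric oxide synthase Nos3 had 146.

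Among the junction and adhesion genes, Cdh5 was the one whose level in every mimic sample lay above that in every control sample. Cdh5 (chr8:104101625-104144511, plus strand, GRCm38) encodes VE-cadherin. Its level in control replicates 1 to 6 was 1.53, 1.00, 1.98, 1.91, 2.04 and 2.15 CPM, from 23 to 73 counts per library. In mimic replicates 1 to 5 it was 2.74, 2.35, 2.54, 3.54 and 3.60 CPM, from 47 to 89 counts. The groups did not overlap, mimic replicates 4 and 5 stood above the other mimic samples, and control replicate 2 was lowest. Cdh5 thus averaged 1.77 ± 0.431 CPM under control and 2.96 ± 0.580 CPM under mimic, and the fitted log2 fold change was 0.77 with an SE of 0.15 and a 95% interval of 0.47 to 1.07.

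The other 3 genes of this role were low. Pecam1, an adhesion molecule of endothelial cells, platelets and leukocytes, ranged from 0.347 to 0.525 CPM in control and from 0.332 to 0.494 CPM under mimic, with at most 20 counts in a library. Its groups overlapped over most of their range, and its log2 fold change was 0.05 with a 95% interval of -0.43 to 0.53 (-0.021 without mimic replicate 2). Esam, which sits at endothelial tight junctions, ranged from 0.387 to 0.696 CPM in control and from 0.284 to 0.912 CPM under mimic. Its log2 fold change of 0.26 had an interval of -0.23 to 0.76, which holds a fall as well as a rise. It was 0.087 without mimic replicate 1 and 0.43 without mimic replicate 5. Cldn5 had its only count in control replicate 1, the deepest library.

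The VEGF receptors stood far apart in level, and for both the groups overlapped. Kdr, which encodes the main signalling receptor VEGFR2, ranged from 30.8 to 37.99 CPM in control and from 30.6 to 39.0 CPM under mimic. With 566 or more counts in every library it was measured closely, and its log2 fold change was 0.04 with a 95% interval of -0.10 to 0.18. Flt1, which encodes VEGFR1, a receptor that binds VEGF tightly and often withholds it from VEGFR2, ranged from 0.208 to 0.731 CPM in control and from 0.406 to 0.637 CPM under mimic. Its log2 fold change of 0.08 had an interval of -0.47 to 0.62, and its sign turned without control replicate 1 (-0.038), control replicate 4 (-0.085) or mimic replicate 4 (-0.020).

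The angiopoietin receptors were near the limit of detection. Tek, which encodes the angiopoietin receptor Tie2, had 2, 4, 1, 4, 5 and 2 counts in control replicates 1 to 6 and 4, 2, 0, 4 and 2 counts in mimic replicates 1 to 5. Tie1, which encodes the related receptor that modulates Tie2, had 0, 1, 1, 1, 0 and 0 counts in control and 6, 2, 2, 0 and 7 counts in mimic samples. Summed over libraries that was 3 counts against 17, a ratio of 8.27 at equal depth with a 95% counting interval of 2.39 to 44.0, which leaves out the spread between samples. Mimic replicates 1 and 5 held 6 and 7 of these counts and mimic replicate 4 none, so the groups overlapped. Tie1 failed the count filter and entered the call only when the filter was dropped.

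**Figure D2:**
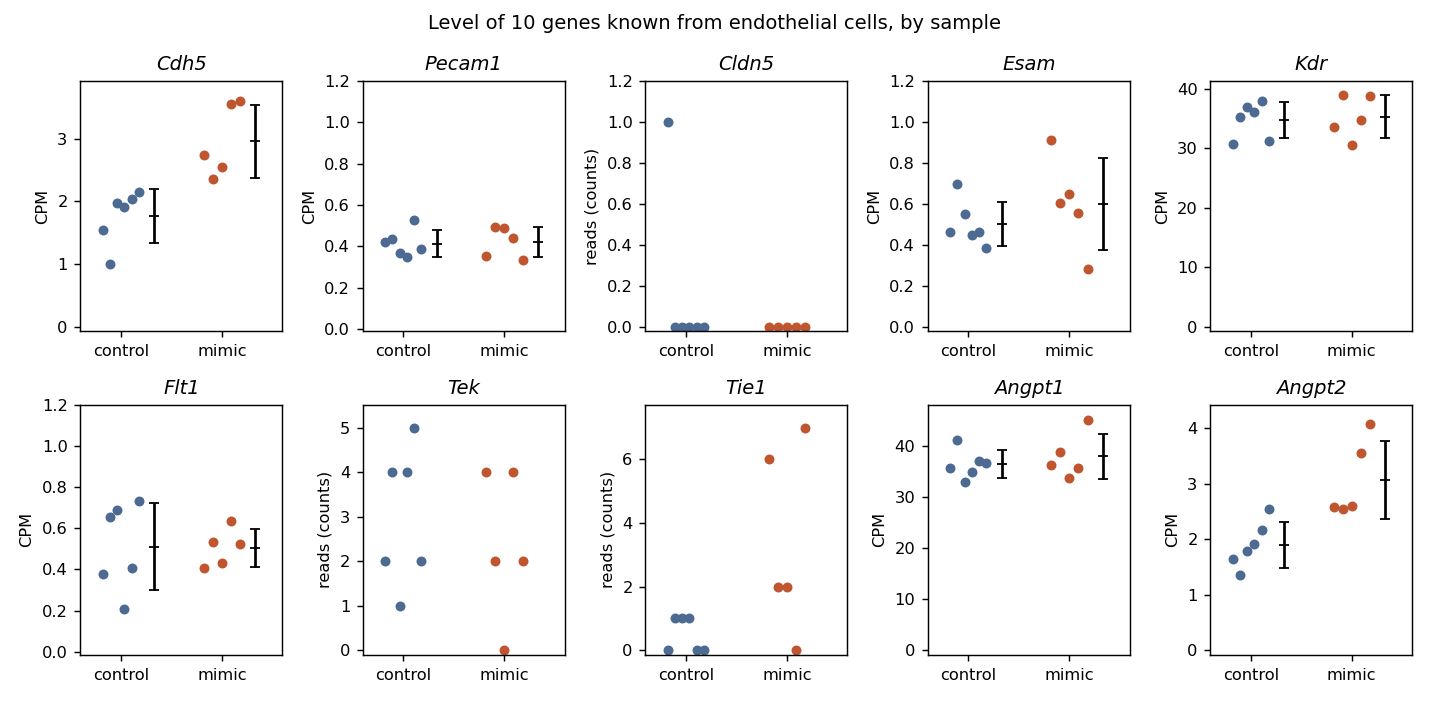
Each of the 10 genes in the 6 control and 5 mimic samples, in CPM for the 7 tested genes and in raw counts for Cldn5, Tek and Tie1; points are samples in replicate order, and bars give the mean and SD. Cdh5 and Angpt2 are the panels where the groups do not overlap, while Kdr and Angpt1 lie at 30.6 CPM or more in every sample of both groups.

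Of the 2 ligands, Angpt2 was higher in every mimic sample and Angpt1 was not. Angpt2 (chr8:18690263-18741562, minus strand) encodes the ligand that often blocks Tie2. Its level in control replicates 1 to 6 was 1.64, 1.35, 1.79, 1.91, 2.16 and 2.54 CPM, from 31 to 78 counts. In mimic replicates 1 to 5 it was 2.59, 2.54, 2.60, 3.54 and 4.07 CPM, from 48 to 89 counts. The groups did not overlap, but narrowly, with the highest control sample at 2.537 and the lowest mimic sample at 2.544 CPM. As for Cdh5, mimic replicates 4 and 5 were highest and control replicate 2 lowest. Angpt2 averaged 1.90 ± 0.414 CPM under control and 3.07 ± 0.702 CPM under mimic, and its fitted log2 fold change was 0.73 with an SE of 0.15 and a 95% interval of 0.43 to 1.02.

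Angpt1 encodes the ligand that activates Tie2 and was the highest of the 10 genes. It ranged from 33.1 to 41.3 CPM in control and from 33.7 to 45.3 CPM under mimic, and mimic replicate 5 was highest. Its log2 fold change was 0.06 with a 95% interval of -0.07 to 0.20. Within a sample there were 0.0327 to 0.0691 reads of Angpt2 per read of Angpt1 in control and 0.0652 to 0.0990 in mimic samples, which overlapped.

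In all, 2 of the 7 tested genes (Cdh5 and Angpt2) were called and both were higher in the mimic samples. Among all tested genes 2.85% were called in either direction and 1.08% were called higher. The groups did not overlap in CPM for the same 2 genes and for 2.89% of all tested genes. Since the list was chosen by this contrast, nothing is read from these shares. The median log2 fold change of the 7 genes was 0.08, beside -0.00015 over all tested genes, and the 5 genes not called ranged from 0.04 to 0.26. In samples of many cells, more cells of a type and more RNA per cell cannot be told apart.

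**Figure D3:**
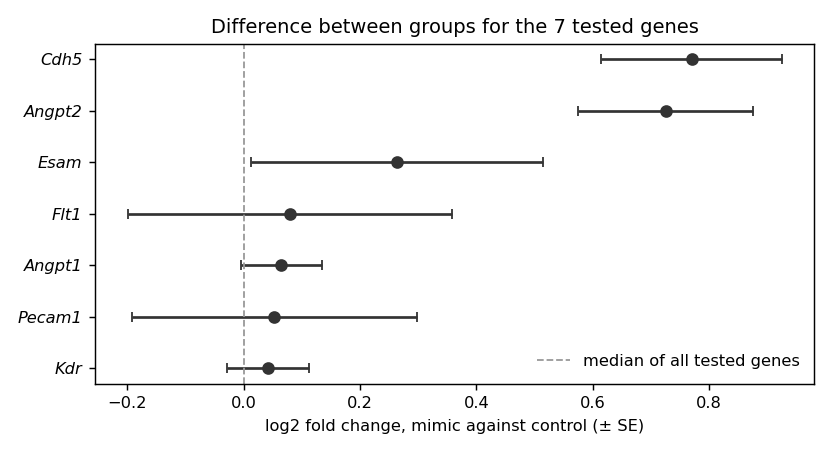
Log2 fold change of the 7 tested genes, mimic against control, with bars of 1 SE; the dashed line is the median of all tested genes. Angpt2 at 0.73 and Cdh5 at 0.77 stand apart from the other 5 genes, which lie between 0.04 and 0.26.

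The level of Cdh5 followed that of Angpt2 from sample to sample, which is given as a description, since the values of both genes chose the list. The ratio of Cdh5 counts to Angpt2 counts was 0.929 ± 0.124 in control and 0.969 ± 0.0677 in mimic samples, with overlapping ranges. Within the 6 control samples Pearson's r of Cdh5 with Angpt2 was 0.87. It was 0.11 with Kdr, -0.06 with Flt1, -0.12 with Pecam1, -0.70 with Angpt1 and -0.82 with Esam. Without control replicates 1 and 2 these values were 0.91, -0.69, 0.69, 0.34, 0.64 and -0.59, in the same order.

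**Figure D4:**
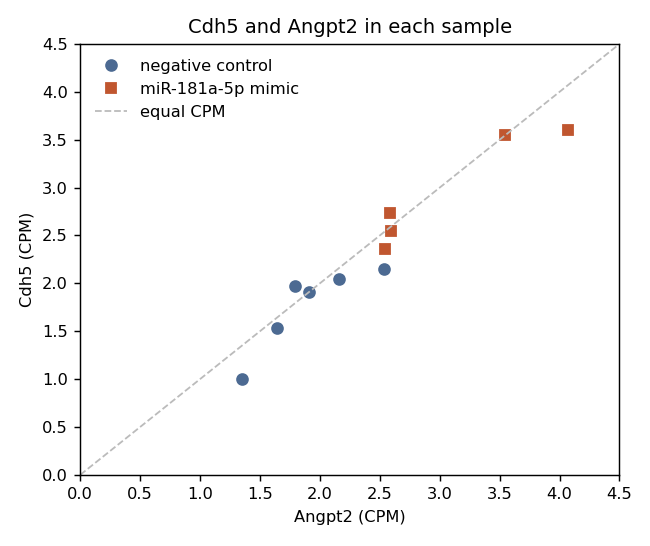
Cdh5 against Angpt2 in each of the 11 samples, both in CPM; circles are control and squares mimic samples, and the dashed line marks equal CPM. The samples lie along the dashed line in both groups, with mimic samples above 2.35 CPM of Cdh5 and control samples at 2.15 or lower.

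Over all 11 samples, where the group difference enters the measure, Angpt2 was the gene whose CPM was most like that of Cdh5 among all tested genes (Spearman's rho of 0.982). Filip1l and Gsta3 came next for Cdh5, both at 0.955, and Anln and Bgn for Angpt2, also at 0.955. Anln, an actin-binding protein of dividing cells, was 14.2 ± 1.01 CPM in control and 16.7 ± 0.683 CPM under mimic and was called. Bgn, a proteoglycan of connective tissue, was 38.3 ± 5.11 CPM and 49.7 ± 5.45 CPM and was not called.

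Beside the rise of Cdh5 and Angpt2, the summed levels of fibroblast and dividing-cell genes were also higher in the mimic samples, while those of neuronal, astrocyte and microglial genes were lower. Such a sum follows the most abundant genes of its list. Of the tested neuronal, astrocyte and microglial genes 8, 7 and 10 were lower, and 2, 3 and 3 were higher. The summed level of 17 genes of meningeal and perivascular fibroblasts was 409 to 655 CPM in control and 679 to 911 CPM under mimic, which did not overlap. All 16 tested genes of that list had a higher level in the mimic samples, with a median log2 fold change of 0.44. The unadjusted p in edgeR was under 0.05 for 13 of the 16, and 2 were called, beside 1.08% of all tested genes called higher. These 2 were the transcription factors Foxd1 and Foxc1 (both named after their values were seen). Foxd1 was 0.422 ± 0.117 CPM in control and 0.946 ± 0.230 CPM under mimic, and Foxc1 5.73 ± 0.465 and 7.03 ± 0.962 CPM. The call of Foxc1 was lost in 13 of 19 alternatives, and DESeq2 called 5 genes of this list. Among its genes Dcn, a collagen-binding proteoglycan, was 22.8 ± 3.98 CPM in control and 32.6 ± 7.07 CPM under mimic, and was not called. Mimic replicates 4 and 5 had the highest fibroblast sums, as they had for Cdh5 and Angpt2, while control replicate 1 had the lowest. The sum of 10 genes of dividing cells was 90.6 to 99.5 CPM in control and 106 to 117 CPM under mimic. The unadjusted p in edgeR was under 0.05 for 9 of the 10. Of the 10, 4 were called, all higher (Top2a, Ccna2, Cdk1 and Rrm2, named after their values were seen). Among all tested genes 1.08% were called higher. The calls of Ccna2, Cdk1 and Rrm2 were lost without control replicate 1 and without mimic replicate 2. The part of these cell types in the levels of Cdh5 and Angpt2 was not tested.

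Pericytes, which wrap small vessels, did not show one direction. Of 13 tested genes of pericytes and smooth muscle, 7 were higher and 6 lower, and the unadjusted p in edgeR was under 0.05 for 8. The summed levels overlapped at 70.9 to 85.8 CPM in control and 72.5 to 79.9 CPM under mimic. Rgs5, a pericyte regulator of G-protein signalling, was the one called gene and fell from 11.7 ± 2.38 CPM to 7.42 ± 0.793 CPM, with a fitted log2 difference of -0.66 (SE 0.13, adjusted p = 0.0227 in edgeR). Its call was lost without control replicate 1 and without mimic replicate 2, 4 or 5. Pdgfrb, the receptor that recruits pericytes, was 21.1 ± 2.26 and 23.4 ± 1.49 CPM and was not called.

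**Figure D5:**
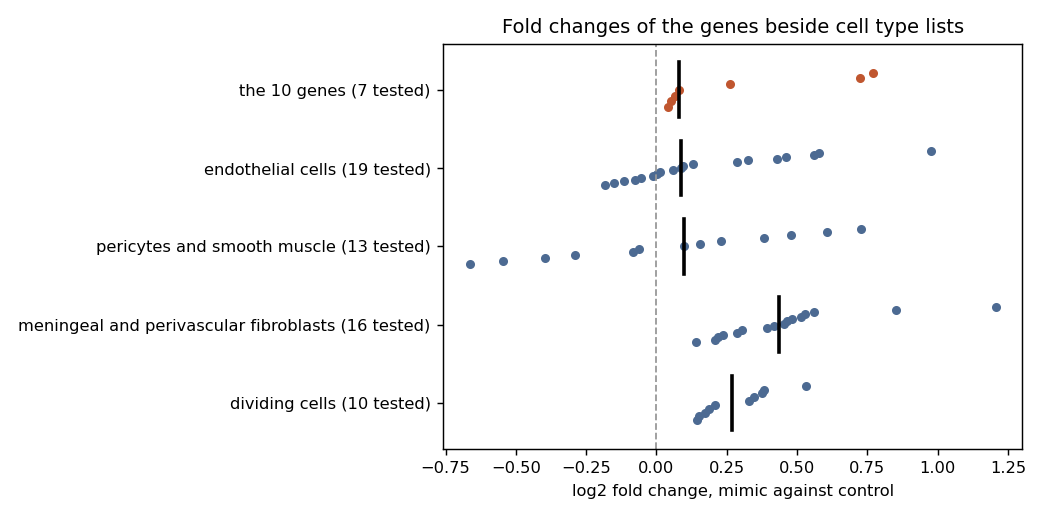
Log2 fold change of each tested gene, mimic against control, for the list of 10 genes and for lists of endothelial cells, pericytes and smooth muscle, meningeal and perivascular fibroblasts, and dividing cells; black bars are medians and the dashed line is the median of all tested genes. The endothelial genes spread to both sides of the line with a median of 0.09, and the fibroblast genes all lie above it with a median of 0.44.

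The further endothelial genes gave the wider background for Cdh5 and Angpt2. Of 19 tested, 1 (Foxf2) was called, beside 2.85% of all genes, with 13 higher and 6 lower and a median log2 fold change of 0.09. The unadjusted p in edgeR was under 0.05 for 8 of the 19. Of these, Foxf2, Eng, Ecscr, Adgrf5, Plvap and Cd34 were higher in the mimic samples, and Slc2a1 and Mfsd2a were lower. Ecscr, named after its values were seen, had the largest log2 fold change of the list, at 0.98. It was not called (edgeR adjusted p = 0.12), and its groups overlapped. Foxf2, a transcription factor of brain mural cells and fibroblasts as well as endothelium, rose from 1.75 ± 0.316 CPM to 2.53 ± 0.416 CPM, with a fitted log2 difference of 0.58 (SE 0.14, adjusted p = 0.0239 in edgeR). The call was lost when control replicate 1 or mimic replicate 2, 4 or 5 was left out, which left 0 genes of this list called. Eng, a co-receptor for TGF-beta, was 1.90 ± 0.322 and 2.68 ± 0.686 CPM with an edgeR adjusted p of 0.0562. Mfsd2a, a lipid transporter of the blood-brain barrier, was 13.7 ± 0.400 and 12.2 ± 0.818 CPM with an adjusted p of 0.0603.

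Of 33 genes of angiogenic signalling other than the list's own ligands and receptors, 28 were tested, with a median log2 fold change of -0.01. Of these 28, 1 was called higher and 2 lower, beside 2.85% of all tested genes called in either direction. The unadjusted p in edgeR was under 0.05 for 8 of the 28. Epas1, the hypoxia-inducible factor HIF-2alpha, fell from 55.3 ± 3.46 CPM to 44.2 ± 3.35 CPM, with a fitted log2 difference of -0.33 (SE 0.05, adjusted p = 0.0011 in edgeR), and its groups did not overlap. Sema3e, a guidance ligand that also repels vessels, fell from 77.0 ± 2.66 to 69.5 ± 2.69 CPM (log2 fold change -0.15, edgeR adjusted p = 0.0119). Nrp2, a co-receptor for VEGF and semaphorins, rose from 548 ± 19.0 to 587 ± 18.8 CPM (log2 fold change 0.10, edgeR adjusted p = 0.0393). The related co-receptor Nrp1 was 381 ± 6.32 and 381 ± 12.2 CPM and was not called. The call of Nrp2 was lost without control replicate 1 or 6, without mimic replicate 1, 2 or 4, and with a replicate block. That of Sema3e was lost without mimic replicate 2, which left 1 called gene, Epas1.

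Of 24 further genes of cell junctions, 23 were tested and edgeR called 0, as did DESeq2, with 1 gene (Magi1) at an unadjusted p under 0.05 and a median log2 fold change of 0.02. Magi1, a junction scaffold, was 74.8 ± 0.972 CPM in control and 71.0 ± 2.63 CPM under mimic. Ctnnb1 (beta-catenin), which binds the tail of cadherins, was 1026 ± 15.2 and 1043 ± 6.58 CPM. Cdh2, the cadherin of neurons and glia, was 207 ± 4.94 and 203 ± 2.19 CPM. Jam3 and Ocln, both of tight junctions, had log2 fold changes of 0.11 and 0.11 and were not called either.

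Genes that share a place with members were checked, since the library kit does not mark strand and the counting options for strand are not given in the sources used here. Angpt2 lies wholly within Mcph1, a gene of chromosome condensation on the opposite strand, and the pair share 0 exon bases. Mcph1 was 19.0 ± 0.586 CPM in control and 18.4 ± 1.14 CPM under mimic, with a log2 fold change of -0.04, and its groups overlapped. Gm29682, opposite Cdh5, had 1 count over all 11 libraries. Gm17473, antisense to Angpt1 with 737 shared exon bases, had 0 to 6 counts per library, so reads of the pair cannot be told apart there.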

How the data were processed

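Poly(A) RNA of 11 samples was made into TruSeq v2 libraries and sequenced as 50 base single-end reads. Per the labels, the authors checked reads with FastQC 0.11.5, aligned them to mm10 with STAR 2.5.2b and counted them per Ensembl gene with featureCounts (Subread 1.5.1). They deposited raw counts per sample, used here for all main values, and a normalized signal table of 16921 genes, which is the counts divided by 1 factor per sample by the authors, used for alternatives. Annotation release, strand and multi-mapping options are not given in the sources used here. No value column was left unassigned, and every row named a gene.

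Groups came from the labels. Genes that reached 5 counts in 50% or more of the libraries were fitted with edgeR 4.0.16 in R 4.3.3 (TMM, robust quasi-likelihood, two-sided, group as sole term, Benjamini-Hochberg over 17365 genes). The SE is the log2 fold change over the square root of F. The code was tested on simulated data. Alternatives used DESeq2 1.42.0, limma 3.58.1 on log2(signal + 1), other scalings and filters, a replicate block, and leaving out each library. Symbols (48349 of 48709 matched), exons and UTRs came from GENCODE M21, and microRNA sequence from RefSeq.

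The 10 genes and all lists were chosen with earlier results of these data known. All 10 were described. From the endothelial, angiogenic and junction lists, the called genes, the 3 with the smallest unadjusted p and the 2 with the highest level per exon length were named. Genes overlapping a member, the 3 genes most like Cdh5 and Angpt2 by rank correlation, and marker genes of other cells were named too. Genes marked in the text as named after their values were seen can fall outside these rules, such as Erg, Sox17, Icam2, Egfl7, Cd93, Cd34 and Nos3.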

Additional observations from a re-analysis of the deposited data

How the results depend on the processing

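Cdh5 and Angpt2 were called in the main test and in all but 1 of 19 alternatives, with log2 fold changes of 0.67 to 0.85 for Cdh5 and 0.61 to 0.83 for Angpt2 over all 19. Without a count filter 3 were called, the added gene being Tie1 with its 3 and 17 counts. With limma on the normalized table without an abundance trend, 0 were called and the changes were 0.75 and 0.68, while with a trend both were called. The plan named limma with no word on a trend, the fit without one was run first, and the trend was chosen after its result was seen. Over all genes, 495 calls became 785 without a filter, 32 with limma without the trend and 328 with the replicate block, and 218 to 491 when 1 library was left out (218 without control replicate 1, 237 without mimic replicate 2, 278 without mimic replicate 4).

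Of 34 further endothelial genes, 1 was called in the main test, 0 to 3 when 1 library was left out, 3 without a filter, 2 with the replicate block and 0 with limma without the trend. Of the angiogenic genes, 3 were called, 1 to 3 when 1 library was left out and 0 with limma without the trend. Among dividing-cell genes, Ccna2, Cdk1 and Rrm2 lost their calls without control replicate 1 and without mimic replicate 2, Cdk1 also without mimic replicate 5. The junction list stayed at 0 calls in all 19 alternatives. Log2 fold changes near 0 turned sign for Flt1 (-0.085 to 0.22 over libraries left out) and Pecam1 (-0.021 to 0.13). Upper-quartile scaling split the calls into 226 lower and 234 higher. With the longest transcript as length, the levels per kilobase kept their order and rose for Angpt1 (8.56), Kdr (5.87), Esam (0.269), Pecam1 (0.120) and Flt1 (0.0742). DESeq2 called 5 fibroblast, 2 pericyte and 2 astrocyte genes in place of 2, 1 and 1, and gave no adjusted p for Esam, Flt1 and Pecam1.

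Whether the replicate numbers 1 to 5 pair the samples is not known. Same-numbered samples correlated at -0.053 to 0.049 in their deviations from the group means, which showed no sign of pairing. These values cannot decide it, since no correlations of differently numbered samples were set beside them. The block fit left out control replicate 6 and called 328 genes, 2 of them in the list. Depth limits Cldn5, Tek and Tie1, with 1, 18 and 3 counts over the control libraries and 0, 12 and 17 over the mimic libraries, which were too few for the main test. The cause of these changes was not tested.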

Other observations

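The median log2 fold change was -0.09 for the astrocyte, -0.05 for the neuronal and -0.27 for the microglial genes, beside 0.44 for the fibroblast genes. These medians are a description, and no test of their difference was made. The summed level of 10 astrocyte genes was 4902 to 5342 CPM in control and 4498 to 4814 CPM in mimic samples, without overlap. Of the 10, 7 were lower and 3 higher, and 1 was called, beside 2.85% of all tested genes. It was Slc1a2, a glutamate transporter (named after its values were seen), which fell from 2398 ± 77.8 to 2109 ± 49.1 CPM. The call of Slc1a2 was lost in 0 of 19 alternatives. Slc1a3, next highest in CPM and also named after its values were seen, was 1045 ± 32.3 and 1046 ± 27.5 CPM. Gfap, the astrocyte filament protein, was 731 ± 49.6 CPM (SD, n = 6) and 662 ± 45.9 CPM (SD, n = 5) and was not called. Of 13 tested microglial genes edgeR and DESeq2 called 0, with 3 at an unadjusted p under 0.05, 10 lower and 3 higher, and the list summed to 29.8 to 31.8 and 27.9 to 29.7 CPM. The 3 genes at this p did not share a direction (named after their values were seen). Tmem119, with the smallest p, was higher (log2 fold change 0.54, edgeR adjusted p = 0.0534). C1qa and Tyrobp were lower, at -0.42 and -0.39. Cx3cr1, the fractalkine receptor of microglia, was 0.663 ± 0.121 and 0.700 ± 0.136 CPM. Of the 10 neuronal genes 1 was called (Slc17a7, a vesicular glutamate transporter, named after its values were seen, lower in the mimic samples), a call lost without control replicate 1 and without mimic replicate 2 or 4, and Rbfox3, the neuronal nuclear antigen, was 136 ± 7.78 and 128 ± 4.91 CPM. The proliferation marker Mki67 was 18.1 ± 1.28 and 20.7 ± 1.80 CPM and was not called. Red blood cell genes summed to 0.344 to 0.584 and 0.108 to 0.760 CPM. Over the 14 series of values checked for a single sample far from its group, 0 were found, where chance gives 0.7.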
